A study of Homo sapiens with 33 samples.

Results

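Karpas422 cells, a line from a human diffuse large B cell lymphoma that carries mutant EZH2 according to the series title, were kept in culture with the solvent DMSO and profiled on expression arrays. The comparison set the 3 arrays of cells in DMSO for 48 h against the 3 arrays of cells at 0 h, 6 of the study's 33 arrays, across 19775 genes. The other arrays were of cells in DMSO for 8, 24 or 72 h or 6 days and of cells given 5 µM EED226, an allosteric inhibitor of the Polycomb complex PRC2, for the same times, 3 arrays each. All were total RNA of the one cell line, grown in RPMI-1640 with bovine serum, and the replicates are biological triplicates in the design text. The labels name DMSO for the 48 h cells and give no handling for the cells at 0 h, so time in culture and the solvent cannot be told apart. A value is the deposited RMA level of a gene's brightest probe set on the log2 scale, a difference is DMSO 48 h minus 0 h, and a gene passed the test where limma's adjusted p, corrected over all 19775 genes by the Benjamini-Hochberg method, was under 0.05.

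Type I interferons are secreted by cells that sense viral or other foreign nucleic acid. They act through a cell surface receptor and the transcription factor ISGF3, of which IRF9 is the DNA-binding subunit, and switch on a set of antiviral genes through a short promoter motif, the interferon-stimulated response element. B cells can both make and answer this signal. Cholesterol and fatty acid synthesis is set by another pathway, in which SREBP transcription factors are released when membrane sterol is low and INSIG1 holds them back when it is high.

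Vehicle culture for 48 h changed 176 of 19775 genes (0.89%). Of these, 141 were higher (0.713%) and 35 were lower (0.177%) in DMSO 48 h cells than at 0 h. Genes of the interferon response made up most of the large rises: of the 29 rises of at least 2-fold, 24 were in a list of interferon response genes, 3 more were in a wider list of interferon-induced genes chosen after the values were seen, and the other two were OLMALINC and INSIG1. Only 1 fall reached 2-fold, that of HMOX1. The median rise was 0.54 and the median fall was -0.38 on the log2 scale, and the median over all genes was -0.00. All 176 genes had 3 values at 48 h that did not overlap the 3 at 0 h, which was also true of 9.28% of all genes in the upward and 8.68% in the downward direction. At an unadjusted p under 0.05 there were 1947 genes. With only these 6 arrays in the fit 54 genes passed, and leaving out 1 of them from the full fit gave 86 to 96 genes for each DMSO 48 h array and for 0 h replicates 1 and 2, and 162 for 0 h replicate 3.

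**Figure D1:**
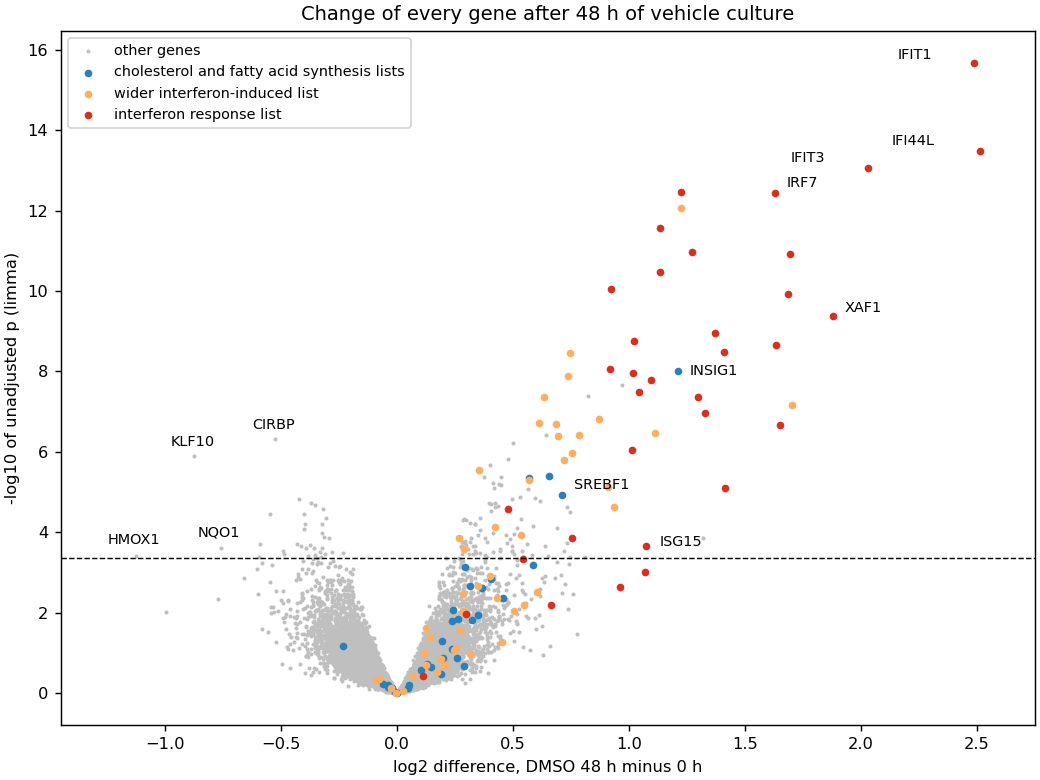
Each point is 1 of 19775 genes, with the log2 difference DMSO 48 h minus 0 h on the x axis and minus log10 of the unadjusted limma p on the y axis. The dashed line marks the largest unadjusted p that passed after adjustment, red points are the interferon response list, orange points the wider interferon list and blue points the cholesterol and fatty acid synthesis lists. Red points fill the upper right, up to a difference of 2.51, and the falls reach -1.13.

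The 6 arrays had medians of 4.06 to 4.13 and correlated with each other at 0.995 to 0.997 across probe sets. The 3' minus 5' difference of the ACTB control probe sets, which grows as RNA is degraded, was 3.04 to 3.25 on the DMSO 48 h arrays and 2.79 to 3.33 on the 0 h arrays. B cell markers had a mean level of 9.28 to 9.37 over 9 members on the DMSO 48 h arrays and 9.20 to 9.41 on the 0 h arrays. The corresponding ranges were 4.61 to 4.75 and 4.66 to 4.77 for 12 T and NK cell markers, 3.55 to 3.68 and 3.61 to 3.66 for 9 myeloid markers, and 4.58 to 4.66 and 4.45 to 4.61 for 10 fibroblast and endothelial markers. In each of the 4 lists 0 members passed, where 0.89% of all genes did. Below the lowest array median lay 6 of the T and NK, 7 of the myeloid and 6 of the fibroblast and endothelial markers. A lone high member was DCN, a matrix proteoglycan, at 12.68 to 12.71 in DMSO 48 h cells and 12.46 to 12.62 at 0 h, read by a probe set open to cross-matching, that is, one that can match several transcripts. The marker of smallest p among the myeloid genes, CD163, differed by -0.58 (adjusted p = 0.0582) and was dim in both groups.

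The interferon response genes are shown first by promoter, because they rose together and the motif through which interferon acts can be read in the sequence. The sequences run from 250 bases before to 50 bases after the gene's start, from RefSeq on GRCh38.p14, with matches to the motif (TTTC, any 2 bases, then TTTC, on either strand) in capitals. IFIT1 lies at chr10:89392373-89392672, IFIT3 at chr10:89327747-89328046 and IFIT5 at chr10:89414318-89414617, 3 neighbours of 1 gene family, all on the plus strand. IFI44L lies at chr1:78620198-78620497 on the plus strand, and HERC5, a list member that did not pass, at chr4:88456869-88457168 on the plus strand.
IFIT1: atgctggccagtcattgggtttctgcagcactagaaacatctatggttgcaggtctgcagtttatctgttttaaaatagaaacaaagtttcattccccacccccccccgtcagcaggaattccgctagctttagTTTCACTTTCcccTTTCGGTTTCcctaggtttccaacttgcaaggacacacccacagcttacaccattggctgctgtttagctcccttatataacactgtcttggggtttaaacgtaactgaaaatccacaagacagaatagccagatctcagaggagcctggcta
IFIT3: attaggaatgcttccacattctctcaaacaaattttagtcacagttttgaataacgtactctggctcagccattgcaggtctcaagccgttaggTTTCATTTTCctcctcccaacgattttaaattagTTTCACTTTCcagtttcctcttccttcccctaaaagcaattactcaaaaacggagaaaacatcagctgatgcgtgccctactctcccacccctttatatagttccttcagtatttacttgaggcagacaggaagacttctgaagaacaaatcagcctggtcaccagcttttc
IFIT5: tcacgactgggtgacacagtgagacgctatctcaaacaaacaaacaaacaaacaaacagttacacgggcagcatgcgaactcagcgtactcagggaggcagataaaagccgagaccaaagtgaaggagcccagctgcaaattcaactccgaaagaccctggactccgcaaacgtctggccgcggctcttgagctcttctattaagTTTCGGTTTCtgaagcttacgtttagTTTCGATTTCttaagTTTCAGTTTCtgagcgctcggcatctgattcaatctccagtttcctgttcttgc
IFI44L: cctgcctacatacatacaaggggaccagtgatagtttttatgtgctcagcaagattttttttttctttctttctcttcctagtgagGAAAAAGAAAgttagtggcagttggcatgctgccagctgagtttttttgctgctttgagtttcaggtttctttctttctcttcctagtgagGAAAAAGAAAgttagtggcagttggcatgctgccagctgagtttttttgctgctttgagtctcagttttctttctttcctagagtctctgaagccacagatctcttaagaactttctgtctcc
HERC5: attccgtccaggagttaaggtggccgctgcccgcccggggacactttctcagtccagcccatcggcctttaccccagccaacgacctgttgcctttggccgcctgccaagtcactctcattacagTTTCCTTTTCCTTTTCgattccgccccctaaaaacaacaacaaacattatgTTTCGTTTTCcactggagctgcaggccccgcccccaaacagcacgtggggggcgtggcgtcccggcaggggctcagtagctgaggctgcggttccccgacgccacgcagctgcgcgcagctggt
IFIT1 and IFIT3 hold 2 matches each, IFIT5 holds 3, IFI44L holds 2 on the minus strand, and HERC5 holds 3, a pair of which overlap. The motif was found in 996 of 27305 promoters (3.65%). It was found in 17 of the 27 interferon list promoters available (63%), in 29 of the 118 promoters available for the genes that rose (24.6%) and in 0 of the 23 available for the genes that fell. The motif was chosen after the rises were seen, and a match is a description of the letters, not of a factor bound there.

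Of the 34 interferon response genes measured, 28 rose and 0 fell after 48 h in DMSO, where 0.713% of all genes rose. The median difference of the list was 1.13, against -0.00 over all genes. The difference was above 0 for all 34 members, and the remaining 6 did not pass. The list was written with earlier results of these arrays known, so its direction is not independent evidence.

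The IFIT family, RNA-binding proteins that block translation of viral RNA, had all 4 measured members higher. IFIT1 measured 9.22, 8.95 and 9.13 on the 3 DMSO 48 h arrays, against 6.80, 6.55 and 6.49 on the 3 arrays at 0 h. The lowest value at 48 h stood more than 2 log2 units above the highest at 0 h. It rose by 2.49 ± 0.14 (SE, n = 3 each), 5.62-fold, with limma adjusted p = 4.17e-12. IFIT3 measured 9.23, 8.82 and 9.09 in DMSO 48 h cells and 6.97, 7.05 and 7.03 at 0 h, and rose by 2.03 ± 0.14 (limma adjusted p = 5.78e-10). IFIT2, at 6.999, 6.54 and 6.99 in DMSO 48 h cells against 5.24, 4.90 and 5.49 at 0 h, rose by 1.63 ± 0.18. IFIT5 rose by 1.69 ± 0.15, from a probe set open to cross-matching. The 4 members rose by 3.10-fold to 5.62-fold, with no overlap between the groups for any of them.

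IFI44L, an interferon-induced gene next to its relative IFI44 on chromosome 1, measured 7.32, 7.20 and 7.33 in DMSO 48 h cells and 4.88, 4.75 and 4.68 at 0 h. This was the largest difference of all genes, 2.51 ± 0.17 (limma adjusted p = 3.25e-10). IFI44 rose by 1.37 ± 0.15, with 9.44, 9.24 and 9.31 in DMSO 48 h cells against 8.02, 8.13 and 7.71 at 0 h. XAF1, an interferon-induced gene that promotes cell death, measured 8.02, 7.81 and 7.73 in DMSO 48 h cells and 6.01, 5.98 and 5.93 at 0 h. Its rise was 1.88 ± 0.20. In IFI44L and XAF1 the arrays of a group lay close together beside the gap between groups.

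The enzymes that make 2'-5' oligoadenylate, the messenger that activates the RNA-cutting enzyme RNase L, rose as a family. OAS2 measured 7.59, 7.38 and 7.44 in DMSO 48 h cells and 5.93, 5.98 and 5.45 at 0 h, and rose by 1.69 ± 0.16. OAS1 measured 9.33, 9.33 and 9.33 in DMSO 48 h cells and 7.91, 8.18 and 8.08 at 0 h, a rise of 1.27 ± 0.11. OASL, a relative without that enzyme activity, rose by 1.33 ± 0.18, and OAS3 rose by 1.01 ± 0.16. RSAD2, which makes an antiviral nucleotide, rose by 1.65 ± 0.24, with 7.25, 7.20 and 7.39 in DMSO 48 h cells against 5.59, 5.78 and 5.53 at 0 h. Its neighbour on chromosome 2, CMPK2, a mitochondrial nucleotide kinase, rose by 0.92 ± 0.11. The GTPases MX1 and MX2, which trap viral capsids and ribonucleoproteins, rose by 1.02 ± 0.12 and 1.04 ± 0.14.

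Sensors of viral RNA were also among the rises. RIGI, the receptor for RNA with a 5' triphosphate, measured 8.82, 8.76 and 8.84 in DMSO 48 h cells and 7.64, 7.43 and 7.67 at 0 h, a rise of 1.23 ± 0.09 (limma adjusted p = 1.44e-09). DHX58, a helicase of the same family, rose by 1.02 ± 0.11. IFIH1, the third helicase of this family, rose by 0.75 ± 0.17 (limma adjusted p = 0.0247), but its levels lay below the lowest array median in both groups. DDX60 rose by 1.30 ± 0.17. SAMD9 and SAMD9L, neighbouring antiviral genes on chromosome 7, both rose, by 1.10 ± 0.14 and 1.13 ± 0.09, and EPSTI1 by 1.13 ± 0.10.

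Of the transcription factors of the pathway, IRF7 and IRF9 were in the list and both rose. IRF7, which drives interferon alpha genes once activated, measured 7.79, 7.65 and 7.69 in DMSO 48 h cells and 6.08, 6.20 and 5.97 at 0 h. Its rise was 1.63 ± 0.12, from a probe set open to cross-matching (limma adjusted p = 1.44e-09). IRF9, the DNA-binding subunit of ISGF3, measured 9.10, 9.08 and 9.17 in DMSO 48 h cells and 8.24, 8.01 and 8.34 at 0 h, a rise of 0.92 ± 0.09. USP18, which removes ISG15 from proteins and damps the interferon receptor, rose by 1.41 ± 0.16, with 7.05, 6.91 and 6.91 in DMSO 48 h cells against 5.53, 5.66 and 5.46 at 0 h. HERC6, of the HERC ubiquitin ligase family, rose by 1.41 ± 0.26, with 7.13, 6.83 and 7.17 in DMSO 48 h cells and 5.63, 6.04 and 5.22 at 0 h.

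**Figure D2:**
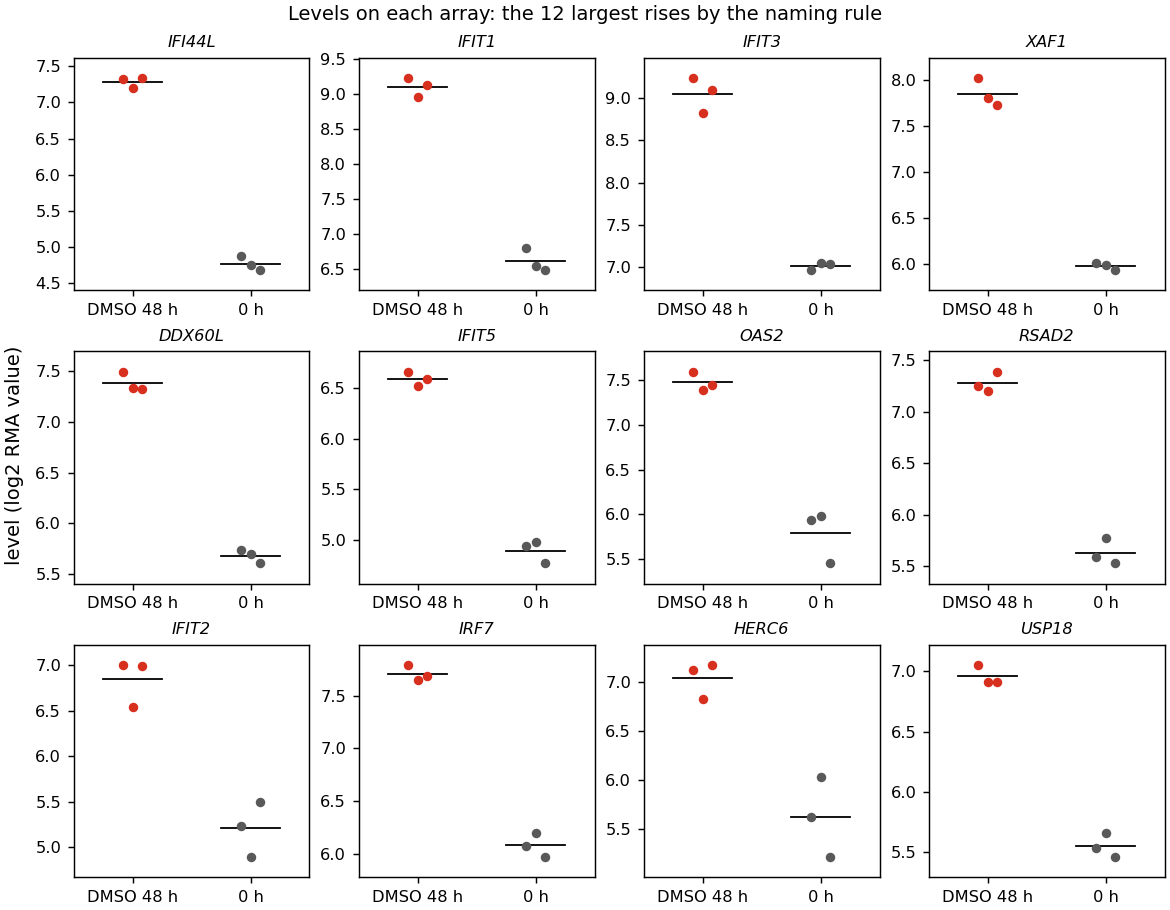
Each panel is 1 of the 12 largest rises among genes that passed, with the log2 RMA level on each array, DMSO 48 h in red and 0 h in grey, and a bar at the mean of 3 arrays. Axes differ between panels and do not start at 0. The groups do not overlap in any panel, and the differences run from 1.41 in USP18 to 2.51 in IFI44L.

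The 0 h arrays were not alike for this list. ISG15, a ubiquitin-like protein, measured 12.76, 12.57 and 12.79 in DMSO 48 h cells and 11.39, 12.31 and 11.19 at 0 h, and rose by 1.07 ± 0.25 (limma adjusted p = 0.0328). The value on 0 h replicate 2 lay nearer to the DMSO 48 h values than to the other two at 0 h. IFI6 had the same order, with 11.18, 10.93 and 11.10 in DMSO 48 h cells and 9.72, 10.78 and 9.50 at 0 h, and a difference of 1.07 ± 0.29 that did not pass (limma adjusted p = 0.0818). IFI27, at 7.38, 6.91 and 7.31 in DMSO 48 h cells and 6.00, 6.82 and 5.89 at 0 h, differed by 0.96 ± 0.29 (limma adjusted p = 0.137). RTP4, IFI35 and ISG20 also had their highest 0 h value on replicate 2 and did not pass, with differences of 0.67, 0.54 and 0.30. Without 0 h replicate 2, 29 members rose, and over the 6 fits that leave out 1 array the count was 25 to 29. The sixth member that did not pass was HERC5, an ISG15 ligase, which was dim in both groups at 2.56, 2.45 and 2.60 in DMSO 48 h cells and 2.33, 2.42 and 2.53 at 0 h.

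The wider list of interferon-induced genes, chosen after the values were seen, had 21 of 47 members higher and 0 lower. Its median difference was 0.40, and 0.713% of all genes rose. DDX60L, the neighbour of DDX60 on chromosome 4, rose by 1.70 ± 0.23, with 7.49, 7.34 and 7.33 in DMSO 48 h cells and 5.73, 5.70 and 5.61 at 0 h, on a probe set open to cross-matching. PLSCR1, a membrane protein that restricts viral entry, measured 10.53, 10.35 and 10.57 in DMSO 48 h cells and 9.11, 9.36 and 9.31 at 0 h, a rise of 1.22 ± 0.10 (limma adjusted p = 2.84e-09). The ADP-ribosyltransferases PARP14, PARP12 and PARP10 rose by 1.11, 0.74 and 0.74. EIF2AK2, the kinase PKR that halts translation on double-stranded RNA, rose by 0.79 ± 0.12, and ADAR, an RNA editing enzyme, by 0.35 ± 0.06. BST2, which tethers virus particles to the cell, rose by 0.54 ± 0.12. Members that did not pass included PML, which builds nuclear bodies, with a difference of 0.20, and IFITM3, an entry inhibitor, with 0.27.

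Some genes upstream of the response, RIGI, DHX58, IFIH1, IRF7 and IRF9 among them, are members of the first list and rose, as given above. Of 27 interferon ligands, receptors and receptor kinases measured, 0 passed in either direction, and the median difference was 0.02. Of 24 other sensors, adaptors and IRF factors, a list that leaves out those in the first, 1 rose, the adaptor MYD88, by 0.28 ± 0.06 (limma adjusted p = 0.0299), and 0 members rose in 5 of the 6 fits that leave out 1 array. Of 17 genes of the interferon gamma response 0 passed, with a median of -0.01. These 3 lists were also chosen after the values were seen. Of 17 MHC class I presentation genes 0 passed, the member of smallest p being the peptide transporter TAP1 with 0.30 (adjusted p = 0.157). Of 16 MHC class II genes 1 rose, RFX5, a subunit of the factor that drives these genes, by 0.28 ± 0.06, a call lost in 5 of those 6 fits. Over all genes the share that rose was 0.713%.

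Time in vehicle culture gave an order to the interferon rise. The median of the list, relative to 0 h, was 0.03 at 8 h, 0.51 at 24 h, 1.13 at 48 h, 1.39 at 72 h and 1.30 at 6 days. These differences share the 0 h arrays, and DMSO day 6 replicate 3 correlated with the other two of its group at only 0.987 and 0.986. IFIT1 averaged 6.61 at 0 h, 6.67 at 8 h, 8.09 at 24 h, 9.10 at 48 h, 9.44 at 72 h and 9.41 at 6 days. Against 0 h, 0 genes passed at 8 h (0%) and 523 had an unadjusted p under 0.05. The counts that passed were 35 at 24 h (0.177%), 176 at 48 h (0.89%), 598 at 72 h (3.02%) and 341 at 6 days (1.72%).

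The step between 24 and 48 h was tested directly. Its difference does not use the 0 h arrays, but its error does, since it comes from the fit over all arrays. DMSO 48 h and DMSO 24 h differed in 17 genes (0.086%), of which 16 were higher (0.0809%) and 1 was lower (0.00506%). Of the 16, 13 were in the interferon list and 2, PLSCR1 and PARP12, in the wider one. IFI44L rose by 1.195 ± 0.17, IFIT1 by 1.01 ± 0.14, OAS2 by 0.97 ± 0.16 and IFI44 by 0.88 ± 0.15 between the times (limma adjusted p of 0.00137 to 0.00961). IRF7 averaged 7.71 at 48 h and 6.98 at 24 h in DMSO, a rise of 0.73 ± 0.12. Outside both lists were MCF2, higher by 0.53, and LOC100289473, with a difference of -0.54, both dim. LOC100289473 also passed at 48 h against 0 h, with a difference of -0.55, and was too dim for the naming rule. With only the 6 arrays of these times 0 genes passed, and leaving out 1 array gave 1 to 14.

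Between DMSO 72 h and DMSO 48 h, 0 genes passed in limma (0%), with 712 at an unadjusted p under 0.05. With the replicate number as a block, 1 gene passed, INSIG1, higher by 0.68 ± 0.11 at 72 h (limma adjusted p = 0.0193, against 0.653 without the block). Same-numbered arrays of this pair of times deviated together. The block, however, was a single effect common to all groups, 0 h included, whose arrays were not taken as paired with those at 48 h.

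Times that share no array with the comparison gave a further, though not fully independent, view of the same genes. DMSO 72 h, set against DMSO 8 h, had 259 genes higher (1.31%) and 111 lower (0.561%). Of the 141 genes that rose at 48 h against 0 h, 111 were also higher at 72 h against 8 h, which is 78.7% of the first set and 42.9% of the second. Of the 35 that fell, 19 were also lower, 54.3% of the first set and 17.1% of the second. In the interferon list 32 of 34 members were higher at 72 h against 8 h, with a median difference of 1.34, and IFIT1 was higher by 2.78 and IFI44L by 2.70. Both comparisons took their error from the same fit, and leaving out 1 array of the later pair gave 166 to 310 genes in place of 370. Replicates 1 and 3 of DMSO 8 h deviated together with the same-numbered 0 h arrays. Their correlations were 0.34 and 0.35 after group means were removed, against 0.08 for replicate 2. Same-numbered arrays of DMSO 72 h and DMSO 48 h also deviated together. The overlap may thus partly repeat shared replicate deviations, and how much was not tested.

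**Figure D3:**
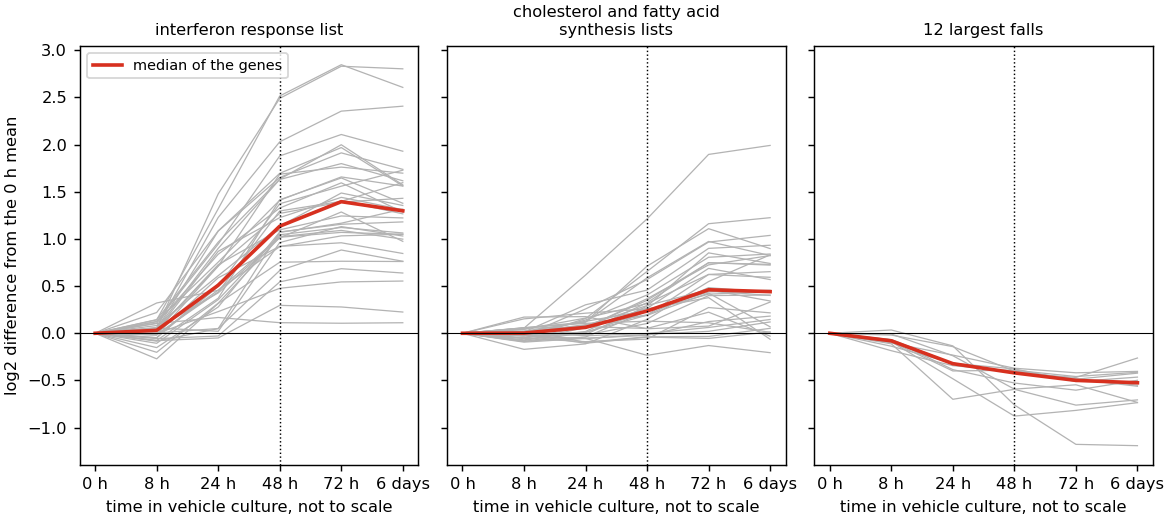
The 3 panels show the interferon response list, the cholesterol and fatty acid synthesis lists, and the 12 largest falls, as the mean of 3 DMSO arrays at each time minus the mean of the 3 arrays at 0 h (log2), with a grey line per gene and the median in red. Times on the x axis are evenly spaced and not to scale, and the dotted line marks 48 h. The interferon median is 0.03 at 8 h and 1.13 at 48 h, and the largest fall drawn at 48 h is that of KLF10, at -0.88.

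In the cholesterol and fatty acid synthesis lists 4 genes rose. INSIG1, the membrane protein that retains SREBP and is itself an SREBP target, measured 9.99, 9.87 and 10.27 in DMSO 48 h cells and 9.02, 8.67 and 8.80 at 0 h. The lowest value at 48 h exceeded the highest at 0 h by more than the spread of either group. INSIG1 rose by 1.21 ± 0.15, 2.32-fold (limma adjusted p = 9.58e-06). MSMO1, an enzyme of cholesterol synthesis, measured 10.91, 10.79 and 10.96 in DMSO 48 h cells and 10.45, 10.22 and 10.27 at 0 h, and rose by 0.57 ± 0.10. Of 23 cholesterol genes measured, these 2 rose and 0 fell, where 0.713% of all genes rose and 0.177% fell. A difference above 0 was found in 19 of the 23, against 9811 of all 19775 genes, and the list's median was 0.24. Members that did not pass included MYLIP, which targets lipoprotein receptors for degradation, at 0.59 (adjusted p = 0.0632), IDI1 at 0.41, DHCR7 at 0.37, SQLE at 0.31 and SREBF2, the gene of SREBP2, at 0.24.

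Of 10 fatty acid synthesis genes measured, 2 rose and 0 fell, with a median of 0.26, where 0.713% of all genes rose. SREBF1, the gene of SREBP1, measured 7.14, 6.82 and 7.18 in DMSO 48 h cells and 6.39, 6.21 and 6.41 at 0 h, and rose by 0.71 ± 0.13. SCD, which puts the first double bond into saturated fatty acids, measured 10.998, 10.75 and 11.06 in DMSO 48 h cells and 10.24, 10.37 and 10.24 at 0 h, and rose by 0.66 ± 0.11. FASN, the fatty acid synthase, differed by 0.32 and ACACA, the carboxylase before it, by 0.29, and neither passed. At 72 h against 8 h in DMSO, 15 of the 23 cholesterol genes and 6 of the 10 fatty acid genes were higher, where 1.31% of all genes were. INSIG1 was higher by 1.84. The motif TCACNCCAC, the sterol response element, was searched on both strands of the same promoters after the values were seen. It was found in 1.15% of all promoters and in 1 of the 21 available for the cholesterol list, that of SREBF2.

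Outside both interferon lists there were 92 rises, with a median of 0.44, the 4 lipid genes among them. OLMALINC, a long noncoding RNA next to SCD on chromosome 10, gave the largest, 1.32 ± 0.30 (limma adjusted p = 0.0247), with 4.52, 4.48 and 5.01 in DMSO 48 h cells and 3.44, 3.38 and 3.24 at 0 h. It was among the dim genes, below the lowest array median at 0 h. MVB12A, a subunit of the ESCRT-I sorting complex, rose by 0.97 ± 0.12. Its promoter held 2 overlapping matches to the interferon motif, which 3.65% of all promoters held. Whether the motif bears on this rise was not tested. OLMALINC and MVB12A are singled out for their size. CARD8, an inflammasome sensor, rose by 0.64 ± 0.10, and STAP1, an adaptor of B cell receptor signalling, by 0.48 ± 0.08; both were chosen after their values were seen.

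Of 28 germinal-centre identity genes measured, 1 rose, SERPINA9, a serpin of germinal-centre B cells, by 0.58 ± 0.12, with 8.71, 8.94 and 8.86 in DMSO 48 h cells and 8.06, 8.18 and 8.53 at 0 h. Of 20 plasma cell genes 0 passed, the smallest p being that of SPCS3, a signal peptidase subunit, at -0.22 (adjusted p = 0.0724). CCNG2, a cyclin linked to growth arrest, was the 1 of 23 growth arrest and FOXO targets to rise, by 0.53 ± 0.10, with 9.99, 9.996 and 10.01 in DMSO 48 h cells and 9.65, 9.28 and 9.48 at 0 h. TP53INP1, a p53 target that promotes autophagy and cell death, was the 1 of 20 p53 targets to rise, by 0.54 ± 0.13. Of 24 hypoxia targets 2 rose, BNIP3L, a mitophagy receptor, by 0.45 ± 0.08 and ANKRD37 by 0.51 ± 0.11. BNIP3L was also the 1 of 29 lysosome and autophagy genes to rise. The share of all genes that rose, to set beside these counts, was 0.713%. TP53INP1 lost the call in 5 of the 6 fits that leave out an array, SERPINA9 in 4, ANKRD37 in 3, CCNG2 in 1 and BNIP3L in none. The only other probe set of ANKRD37 had the opposite sign, as did 1 of the 2 others of TP53INP1. The other probe sets of CCNG2 and BNIP3L had the same sign.

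No member of the growth and biosynthesis lists passed, where 0.89% of all genes did. A count of 0 in lists of this size is near that share. Of 49 G2 and M phase genes, 39 S phase genes, 19 cyclin, CDK and E2F genes and 9 CDK inhibitors and RB family genes, 0 passed. The member of smallest p in the G2 and M list, the mitotic kinesin KIF20A, differed by 0.36 (adjusted p = 0.171), and the list's median was 0.12. A difference above 0 was found in 40 of the 49, against 9811 of all 19775 genes. At an unadjusted p under 0.05 there were 12 of the 49, against 1947 of all 19775 genes. Of 30 MYC network and ribosome biogenesis genes 0 passed. The list's median was -0.08, with a difference above 0 in 10 of the 30 and an unadjusted p under 0.05 in 10. Its member of smallest p, MYC, went the other way, at 0.19 (limma adjusted p = 0.201). Of 28 cytosolic ribosomal protein genes 0 passed, with members between -0.05 and 0.04. Of 38 amino acid response genes 0 passed, the smallest p being that of SLC38A2, an amino acid transporter, at 0.71 (adjusted p = 0.0934). The unfolded protein response, heat shock, glycolysis, NF-kB target, BCL2 family, B cell receptor, circadian clock and respiratory chain lists had 0 members past the test. The same was true of the core and linker histones, with H2AZ2 closest at 0.16, the TNF and death receptor list, with the cytokine LTB at 0.49, the MAPK feedback inhibitors, metal response, chemokine receptor and adhesion lists.

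Genes of PRC2, the complex that the study inhibited in its other arrays, did not pass in vehicle. EZH2, the methyltransferase, measured 10.20, 10.27 and 10.20 in DMSO 48 h cells and 10.17, 10.06 and 10.22 at 0 h, a difference of 0.08 (adjusted p = 0.863). EED, the subunit EED226 binds, differed by 0.00 and SUZ12, the core scaffold, by 0.04, and neither passed. Of 14 PRC2 and H3K27 demethylase genes 0 passed at 48 h against 0 h, where 0.89% of all genes did. A count of 0 among so few genes is near that share. EED226 at 48 h against DMSO at 48 h passed for 1866 genes (9.44%), and this comparison uses the same DMSO 48 h arrays. In it IFIT1 was higher by 2.09 and IFI44L by 2.11 in EED226 cells. INSIG1 differed by -0.03 and did not pass, and SREBF1 differed by -0.58 (limma adjusted p = 0.0042).

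**Figure D4:**
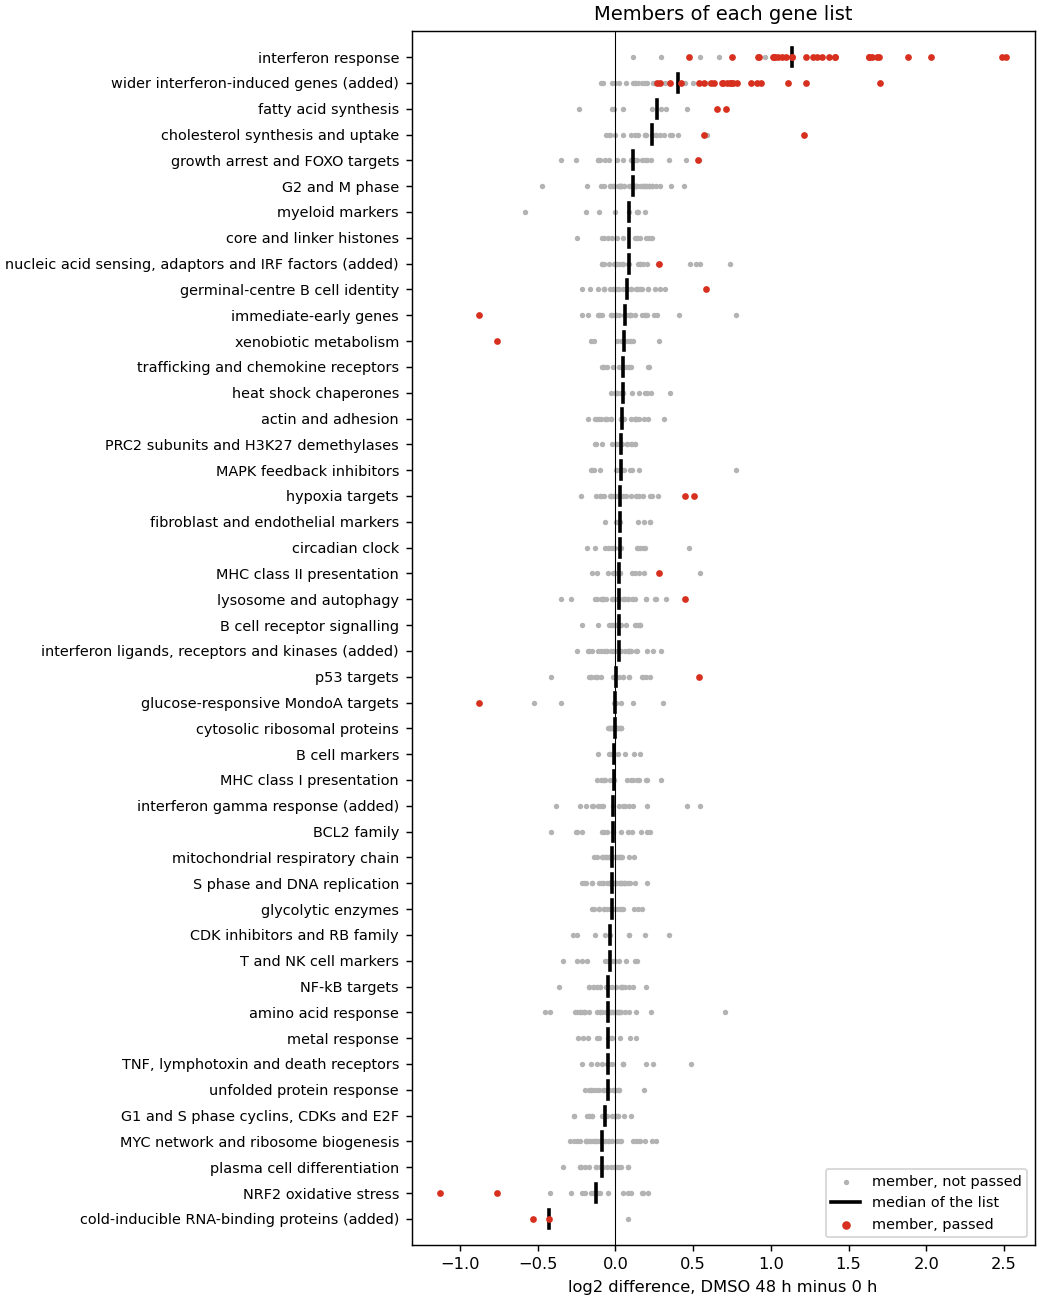
Each row is a gene list and each point a member's log2 difference, DMSO 48 h minus 0 h, with members that passed in red, others in grey and the list's median as a black bar. Lists marked as added were chosen after the values were seen. The interferon list, with a median of 1.13, stands at the top, and the cold-inducible RNA-binding proteins, with a median of -0.42, at the bottom.

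The falls were smaller than the rises. KLF10, a zinc finger factor induced by TGF-beta and by glucose, measured 6.84, 6.85 and 6.88 in DMSO 48 h cells and 7.74, 7.71 and 7.75 at 0 h. Its 3 values in each group lay within 0.05 of each other, on the gene's only probe set, one open to cross-matching. KLF10 fell by 0.88 on the log2 scale, 1.84-fold (SE 0.14, limma adjusted p = 0.000589). It was the 1 member to pass in both the immediate-early list, of 29, and the glucose-responsive MondoA list, of 8, where 0.177% of all genes fell. EGR1, an immediate-early factor, differed by 0.78 and did not pass (adjusted p = 0.446), with 7.07, 6.72 and 6.64 in DMSO 48 h cells and 5.86, 6.87 and 5.37 at 0 h.

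Of 20 NRF2 oxidative stress genes measured, 2 fell, where 0.177% of all genes fell, and the list's median was -0.12. The count was 0 or 1 in each of the 6 fits that leave out 1 array. HMOX1, which breaks down heme, measured 4.65, 4.79 and 4.44 in DMSO 48 h cells and 5.20, 6.45 and 5.60 at 0 h, and fell by 1.13 (SE 0.28, limma adjusted p = 0.0465). Without 0 h replicate 2, the highest, it fell by 0.78 and did not pass, and HMOX1 lost the call in 5 of the 6 fits. NQO1, a quinone reductase, measured 8.91, 9.19 and 8.85 in DMSO 48 h cells and 9.86, 9.39 and 9.98 at 0 h, and fell by 0.76 (SE 0.18, limma adjusted p = 0.0361), a call lost in 4 of those 6 fits. GCLM and GCLC, the subunits of the enzyme that starts glutathione synthesis, differed by -0.29 and -0.21 and did not pass. NQO1 was also the 1 of 10 xenobiotic metabolism genes to pass.

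CIRBP and RBM3 are RNA-binding proteins known to be induced by mild cold, and both fell. CIRBP measured 11.28, 11.23 and 11.15 in DMSO 48 h cells and 11.82, 11.73 and 11.69 at 0 h, and fell by 0.53 (SE 0.08, limma adjusted p = 0.000244). RBM3 measured 10.81, 10.78 and 10.80 in DMSO 48 h cells and 11.28, 11.26 and 11.11 at 0 h, and fell by 0.42 (SE 0.08, limma adjusted p = 0.00467). The groups did not overlap in these genes, both read by probe sets open to cross-matching. They are 2 of a list of 3 genes chosen after the values were seen, and SRSF5, the other, differed by 0.08. The other probe set of RBM3 differed by 0.25, in the other direction, as did 1 of the 4 further probe sets of CIRBP. The CIRBP mean was 11.75 at 0 h, 11.68 at 8 h, 11.36 at 24 h, 11.22 at 48 h, 11.14 at 72 h and 11.25 at 6 days.

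Other falls named by size were PSPC1, a paraspeckle protein, BORCS8, of a lysosome positioning complex, SARM1, an NAD hydrolase, CCDC57, B3GALT6, a galactosyltransferase of proteoglycan synthesis, CENPV, RPP40, a subunit of RNase P, and EMG1, a ribosomal RNA methyltransferase. They differed by -0.59 in PSPC1 to -0.37 in EMG1. Each lost the call in at least 2 of the 6 fits that leave out an array. PSPC1 measured 8.62, 8.50 and 8.41 in DMSO 48 h cells and 9.10, 9.42 and 8.79 at 0 h, so the 0 h arrays spread more widely than the arrays at 48 h. The only other probe set of BORCS8 had the opposite sign, as did 3 of the 4 others of CCDC57. The same was true of 1 of 4 others for PSPC1, 1 of 2 each for SARM1 and B3GALT6, and 0 of 2 for CENPV. EMG1, read by a single probe set, measured 10.65, 10.72 and 10.73 in DMSO 48 h cells and 11.13, 11.01 and 11.07 at 0 h (limma adjusted p = 0.00553).

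**Figure D5:**
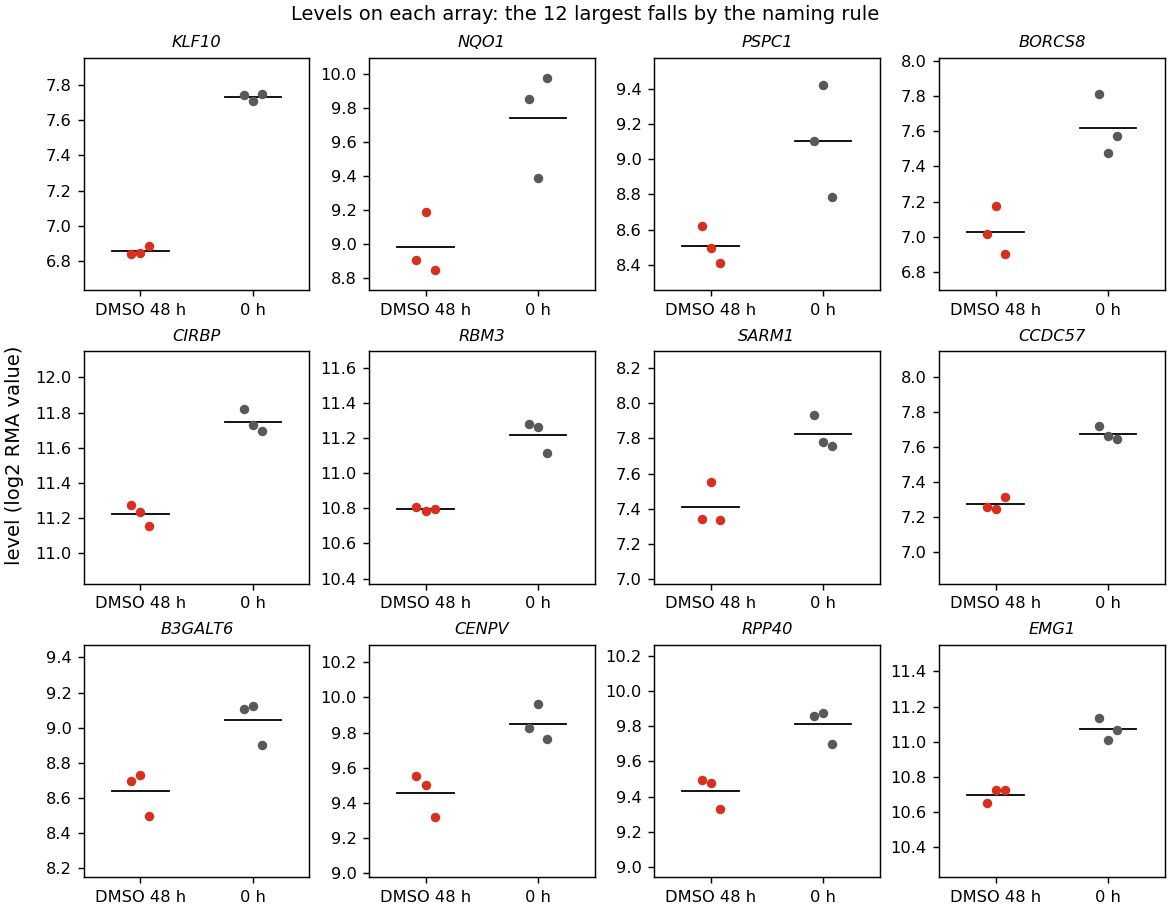
Each panel is 1 of the 12 largest falls among genes that passed and reached a level of 6, with the log2 RMA level on each array, DMSO 48 h in red and 0 h in grey, and a bar at the mean of 3 arrays. Axes differ between panels and do not start at 0. The groups do not overlap in any panel, and the differences run from -0.88 in KLF10 to -0.37 in EMG1.

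TOMM20, a receptor for protein import at the outer mitochondrial membrane, was chosen after its values were seen. It measured 11.19, 11.11 and 11.17 in DMSO 48 h cells and 11.55, 11.61 and 11.37 at 0 h, a difference of -0.35 that passed. Of the 26 respiratory chain subunits in the list written for them, 0 passed, which is near the 0.89% of all genes that did. The list's median was -0.02. In RNA from whole cultures, fewer cells of a kind and less RNA per cell cannot be told apart.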

How the data were processed

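The authors deposited log2 expression values for each probe set, which the submitters' processing notes credit to RMA, from total RNA labelled with a 3' IVT kit per the labels' protocols. RMA corrects background, normalizes by quantiles and summarizes probes; the version is not given in the sources used here, nor which arrays were run together. The table held 54675 probe sets. Gene symbols came from the platform annotation of the array, and 41091 probe sets with 1 symbol gave 19775 genes, each read by its brightest probe set over all 33 arrays, so the EED226 arrays took part in that choice. No filter on dim genes was used. Levels below the lowest array median, 4.06, are called dim.

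Groups follow the sample titles. limma 3.58.1 in R 4.3.3 (lmFit, eBayes) fitted 1 mean for each of 11 groups over 33 arrays, leaving 22 residual degrees of freedom. All tests are two-sided and adjusted by Benjamini-Hochberg within each comparison, at a threshold of 0.05. The number of arrays limits the precision. Differences carry the SE of the fit.

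The genes, gene lists and tests were chosen with earlier results of these data known. Of 41 lists written first, 13 had a member that passed, and 5 were added after the values were seen. The text names the 12 largest rises and 12 largest falls that passed, did not overlap and had a higher group mean of at least 6, up to 3 passing members of each list or the 1 of smallest p, the 4 largest steps each way between times, and EZH2, EED and SUZ12. Other genes named, list members that did not pass among them, were chosen after their values were seen. Of the 176 genes, 62 were read by probe sets that can match several transcripts, and 43 of 118 with other probe sets had at least 1 of opposite sign. 7 were dim in both groups.

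On simulated data for DMSO 48 h against 0 h, with 19775 genes and 200 changed, recovery was 55.9% for a log2 change of 0.5, 97.0% for 1 and 100% for 2, and 12 unchanged genes were called. The simulated noise was normal and independent between arrays, with a single spread per gene. It held no shared replicate deviations and no outlying array, so these figures need not hold for the real arrays. Same-numbered arrays of DMSO 72 h and DMSO 48 h deviated together, with correlations of 0.110, 0.131 and 0.188 after group means were removed. Those of DMSO 48 h and DMSO 24 h were 0.100, 0.089 and 0.152. For DMSO 48 h and 0 h the correlations were 0.084, -0.104 and 0.205, and these arrays were not taken as paired. The main fit used no pairing, and the replicate block was a single effect common to all groups. Promoters and their coordinates are from RefSeq, GRCh38.p14. The alternatives tried were other sets of arrays, a trended robust or array-weighted fit, re-centring, renewed quantile normalization, other probe set rules, an RNA quality covariate, a replicate block and leaving out each array.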

Additional observations from a re-analysis of the deposited data

Results flagged for a closer look

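The step from 24 h to 48 h in DMSO differed from 0 by a direct test in 17 genes, which is a difference between the changes from 0 h at these times. Higher at 48 h than at 24 h were IFI44L by 1.195, IFIT1 by 1.01, OAS2 by 0.97, IFI44 by 0.88, DDX60 by 0.86, IFIT3 by 0.80, IRF7 by 0.73, MX1 by 0.70, MX2 by 0.69, PLSCR1 by 0.62, EPSTI1 by 0.61, DHX58 by 0.57, OAS1 by 0.56, MCF2 by 0.53, SAMD9L by 0.52 and PARP12 by 0.45 on the log2 scale. LOC100289473 differed by -0.54. In each of these the limma adjusted p was under 0.05 over 19775 genes. With only the 6 arrays compared, 0 of them passed, and leaving out 1 array gave 1 to 14 genes.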

How the results depend on the processing

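The 28 interferon list members called higher became 23 to 32 over 19 alternatives, with 0 lower. The total of 176 genes changed, 141 higher and 35 lower, differed between the alternatives. It was 54 (51 higher, 3 lower) with only the 6 arrays compared, 77 (68 and 9) with only the 0 h and DMSO arrays, 285 (219 and 66) without DMSO day 6 replicate 3, 285 (81 lower) with a trended robust fit and 344 (256 and 88) with array weights. It was 266 (74 lower) after renewed quantile normalization, 336 (243 and 93) over genes above the median level, 115 (18 lower) with a gene's probe sets averaged and 94 (78 and 16) without probe sets that can match several transcripts. Centring array medians left 15 falls. Leaving out 1 array gave 86 to 162 genes, with 74 to 130 higher and 8 to 32 lower. The count was 86, 90 and 87 without DMSO 48 h replicate 1, 2 and 3, and 88, 96 and 162 without 0 h replicate 1, 2 and 3. The replicate block gave 271 genes (70 lower) for DMSO 48 h against 0 h, 1 for 72 h against 48 h and 588 for 72 h against 8 h.

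Lists with a passing member, 13, became 21 with the trended robust fit, 7 without probe sets that can match several transcripts and 4 with the 6 arrays alone. The 17 genes of 48 h against 24 h became 1 with only the 0 h and DMSO arrays, 39 with array weights, 11 with mean probe sets, 10 without probe sets that can match several transcripts, 0 with the 6 arrays, and 1 to 14 with 1 array left out. The 370 of 72 h against 8 h became 209, 600, 788, 599, 678, 239 and 77 with only the 0 h and DMSO arrays, without DMSO day 6 replicate 3, with array weights, renewed quantiles, genes above the median level, without several-transcript probe sets and with the 6 arrays alone, and 166 to 310 with 1 array left out.

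Of 36 genes that passed and were named by rule, 24 kept the call with only the 0 h and DMSO arrays. The number was 16 with the 6 arrays alone and 24 to 32 with 1 array left out. Genes named after their values were seen, ISG15, IFIH1, OLMALINC and TOMM20 among them, were not in this count. Signs turned in few of the genes named by rule. EED was -0.0070 with array weights and -0.025 to 0.019 with 1 array left out, and SUZ12 was -0.044 with mean probe sets and -0.043 to 0.097 with 1 array left out. With mean probe sets H2AZ2 was -0.047 and RPL37 0.13. Without probe sets that can match several transcripts RBM3 was 0.25, SARM1 0.18, B3GALT6 0.014, CD163 0.13, LTB -0.057, H2AZ2 -0.16, RPL37 0.16 and DNAJA1 -0.019. The cause of these shifts was not tested, beyond the fewer arrays or genes that some of the alternatives use by construction.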
